A study of Mus musculus with 4 samples.

Results

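Ccl2, Ccl7, Ccl8 and Ccl12, the chemokines that attract monocytes, and Ccr2, the receptor that these cells carry, were followed through the immune cells of the mouse spinal cord before and after injury. They were taken by symbol and are 5 of the 31053 genes in each count matrix; none of their values was used to choose them. The study sorted CD45+ cells (CD45 is the surface protein shared by leukocytes) from the cords of C57BL/6 mice, male and female pooled, aged 3 months. There were 4 libraries, 1 for each condition. The standard sham library and the ActD sham library came from uninjured sham mice (day 0), and the 3 dpi and 14 dpi libraries came from mice at 3 and 14 days after a contusion of the thoracic cord. Actinomycin D (ActD), which blocks transcription, was present during dissociation for all libraries but the standard sham library. The pooled mice of a library cannot be told apart, and how the control mice were divided between the sham libraries was not given in the sources used here. With 1 library for each condition, no difference could be set against a spread between animals and no test was made; a ratio between libraries is a ratio between those libraries.

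CC chemokines are small secreted proteins named for a pair of adjacent cysteines, and they bind receptors that signal through G proteins. Ccl2 (MCP-1), Ccl7 (MCP-3) and the mouse gene Ccl12 (MCP-5) encode ligands of CCR2, whose signal lets classical monocytes leave the bone marrow and enter inflamed tissue. Ccl8 encodes MCP-2, which in mice acts mainly through CCR8. Monocytes that become macrophages in tissue lower CCR2, and resident microglia lack it.

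The 4 ligand genes lie on chromosome 11 within 81229 bases, all on the + strand and with 3 exons each (GRCm38, GENCODE M21): Ccl2 (ENSMUSG00000035385) at chr11:82035571-82037453, Ccl7 (ENSMUSG00000035373) at chr11:82045712-82047525, Ccl12 (ENSMUSG00000035352) at chr11:82101845-82103400 and Ccl8 (ENSMUSG00000009185) at chr11:82115185-82116799. Ccr2 (ENSMUSG00000049103) lies on the + strand of chromosome 9 at chr9:124101950-124113557. The coding sequences around the cysteine pair, cut from exons of these transcripts, show how far the ligands share letters, on which the assignment of reads depends. The capitals mark the codons of the adjacent cysteines.

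Ccl2: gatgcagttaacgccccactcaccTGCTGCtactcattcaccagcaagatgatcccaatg
Ccl7: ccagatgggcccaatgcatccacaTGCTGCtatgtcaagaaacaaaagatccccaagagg
Ccl8: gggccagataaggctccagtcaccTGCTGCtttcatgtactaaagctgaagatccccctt
Ccl12: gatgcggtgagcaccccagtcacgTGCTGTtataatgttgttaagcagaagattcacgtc

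Over these 60 bases, identity ranged from 33.3% for Ccl7 and Ccl8 to 63.3% for Ccl8 and Ccl12. The longest run of bases shared by the transcripts of a pair was 23 (Ccl2 and Ccl7), and it was 11 to 17 in the other pairs, so that long reads of 1 ligand gene do not match another by these sequences. Of the promoters (250 bases before the RefSeq start), those of Ccl12 (chr11:82101595-82101844), Ccl8 (chr11:82114935-82115184) and Ccr2 (chr9:124101933-124102182) were found in the RefSeq table of GRCm38.p6, and those of Ccl2 and Ccl7 were not used here. The RefSeq start of Ccr2 lies inside the GENCODE gene span given above. Most of its 250 bases therefore lie inside that span and not before it. The 2 ligand promoters are shown because the genes are close neighbours with unlike patterns below. The capitals mark motifs found.

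Ccl12 promoter: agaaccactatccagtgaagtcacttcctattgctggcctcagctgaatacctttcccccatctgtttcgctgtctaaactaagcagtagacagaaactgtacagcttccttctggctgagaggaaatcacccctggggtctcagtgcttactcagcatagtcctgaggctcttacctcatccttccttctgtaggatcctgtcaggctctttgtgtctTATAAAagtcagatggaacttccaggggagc
Ccl8 promoter: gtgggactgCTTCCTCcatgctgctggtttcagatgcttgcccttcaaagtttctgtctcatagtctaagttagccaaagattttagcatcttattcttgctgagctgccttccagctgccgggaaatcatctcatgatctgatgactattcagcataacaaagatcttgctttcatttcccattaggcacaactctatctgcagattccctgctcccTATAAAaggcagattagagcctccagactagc

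Searched on both strands were the TATA box as TATAAA (in 12.4% of 32851 promoters of this length), GAGGAAG (PU.1, 10.6%), TTCNNNGAA (GAS, 7.02%), TTTCNNTTTC (core of the ISRE, 2.98%), TGANTCA (AP-1, 6.75%) and the kappaB site (7.25%). A TATA box was found in Ccl12 and in Ccl8, a PU.1 match on the reverse strand in Ccl8, and none of the 6 motifs in Ccr2. The motifs do not overlap each other there. A match is a match of letters and not a site in use.

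Values in the 4 libraries are given in this order: sham by the standard protocol, sham with ActD, 3 dpi, 14 dpi. The cells kept numbered 5138, 2144, 8402 and 9439, with medians of 7494 to 9672 unique molecules (UMIs) a cell and 25807681 to 102482736 UMIs a library. Between 3 and 36 barcodes were shared by any pair of libraries. Each library was clustered alone, without the 5 genes, and clusters were named from marker lists, so that each class name below means cells like that type by those markers. Border macrophages were named from markers such as Mrc1, Cd163 and Lyve1 of the macrophages that line the meninges and vessels. Where the cells lay was not seen here. Injury macrophages were the Arg1, Gpnmb and Fn1 cells seen at 3 dpi. Markers of neither class were absent from the other: injury macrophages held 6478 CPM of border macrophage markers (9 of 10 found). Under the main settings, no cluster of the ActD sham library met the naming rule for classical monocytes, and none at 14 dpi that for injury macrophages. Some other settings did name such clusters, as given with the dependence on processing, so the absence of these cells is not shown. Clusters left unnamed held 702 to 1996 cells a library, many of them microglia-like. In the ActD sham library they included microglia-like clusters of 350 cells (led by Tsix and Nav3) and 252 cells (led by St8sia6 and Fscn1). The cells named microglia there numbered 1005. The standard sham library, made without ActD, stood apart in its immediate early genes. They summed to 48188 CPM in its microglia and to 1038 CPM in those of the ActD sham library. Levels are counts of UMIs scaled to 1000000 UMIs of the class (CPM) with an exact Poisson interval, and shares of cells are given after thinning each cell to 1000 UMIs, with an exact Clopper-Pearson interval. These intervals cover counting error only. Levels are compared between cells and not between genes, and in such data fewer cells of a type and less RNA a cell in a whole library cannot be told apart.

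Over all cells Ccl2 stood at 63.1, 31.5, 692 and 41.6 CPM in the 4 libraries in order, and at 3 dpi, where it was highest, classical monocytes led. Their level was 2066 CPM (95% interval 2024 to 2108), 2.59-fold that of injury macrophages at 799 CPM, which did not differ from border macrophages at 789 CPM beyond counting error. Microglia followed at 435 CPM (95% interval 426 to 445). A band of lower levels, 97.2 to 229 CPM, ran through the other named classes of this library, with 229 CPM in neutrophils, 158 in NK cells, 152 in B cells, 129 in T cells and 101 in conventional dendritic cells (DC). B cells were taken as the class that should lack the ligands, so their value stands for the background of free RNA in the droplets. Ccl2 was found in 49.9% (95% interval 45.6 to 54.2%) of classical monocytes, 42.6% of border macrophages, 39.5% of injury macrophages and 27.4% of microglia, against 17.9% (95% interval 11.8 to 25.5%) of B cells. Before thinning, median depths were 8071, 10402, 15423, 21219 and 2517 UMIs in these classes. The same free RNA makes up more of a shallow cell's UMIs, so B cell values can overstate the background of deeper classes.

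In border macrophages Ccl2 stood at 647, 122, 789 and 131 CPM in the 4 libraries in order. The 14 dpi value did not differ from that of the ActD sham library beyond counting error, with a log2 ratio of 0.11 (95% interval -0.16 to 0.38). The sexes went opposite ways between these libraries, from 50.1 to 229 CPM in male cells and from 177 to 75.5 CPM in female cells. At 14 dpi 1 cell held 75 of the 264 UMIs of the class. The standard sham value was close to that at 3 dpi. In microglia the levels were 66.3, 27.6, 435 and 60.01 CPM in the same order, lowest in the ActD sham library. In classical monocytes they were 194 (standard sham), 2066 (3 dpi) and 137 CPM (14 dpi). At 14 dpi classical monocytes and border macrophages again led and did not differ beyond counting error, followed by non-classical monocytes at 102 CPM and microglia, with B cells at 4.48 CPM. The shares of cells with Ccl2 were then 9.38%, 8.02%, 6.38% and 3.52% in these 4 classes and 0.333% in B cells. A level of 227 CPM in T cells of the standard sham library came mostly from 1 of 54 cells, which held 66.04% of the UMIs.

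Ccl7 went with Ccl2 at 3 dpi, except in microglia. Classical monocytes stood at 1135 CPM (95% interval 1104 to 1166), injury macrophages at 745 and border macrophages at 687 CPM. Microglia, at 148 CPM (95% interval 143 to 154), did not differ beyond counting error from neutrophils at 145 CPM, and B cells stood at 109 CPM. In CPM, Ccl7 in microglia was thus near the B cell level. B cells were far shallower, and counts a cell differed more. The highest microglial cell held 105 Ccl7 UMIs and the highest B cell 3, and 51 of 859 microglia held 50% of the class's Ccl7. Ccl7 was found in 34.99% of injury macrophages, 34.1% of border macrophages, 33.1% of classical monocytes and 10.04% of microglia, against 7.46% (95% interval 3.64 to 13.3%) of B cells.

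Outside 3 dpi, border macrophages held Ccl7 at the highest level of the named classes. It stood there at 662, 206, 687 and 72.6 CPM in the 4 libraries in order, while microglia held 11.3, 1.92 and 2.56 CPM in the standard sham, ActD sham and 14 dpi libraries. Classical monocytes had 13.5 CPM in the standard sham library and 2.396 CPM at 14 dpi, both far under their 3 dpi level. At 14 dpi border macrophages exceeded the next class of at least 50 cells, non-classical monocytes, by a log2 ratio of 4.81 (95% interval 3.73 to 6.15). Smaller classes with UMIs of Ccl7 then were mast cells or basophils, at 25.5 CPM (95% interval 10.3 to 52.6, 33 cells), and endothelial cells, at 8.79 CPM (95% interval 1.81 to 25.7, 34 cells). In the standard sham library, 5 of 132 border macrophages held 50% of the class's Ccl7, and of 69 Ccl7 UMIs in T cells 1 cell held 85.5%.

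**Figure D1:**
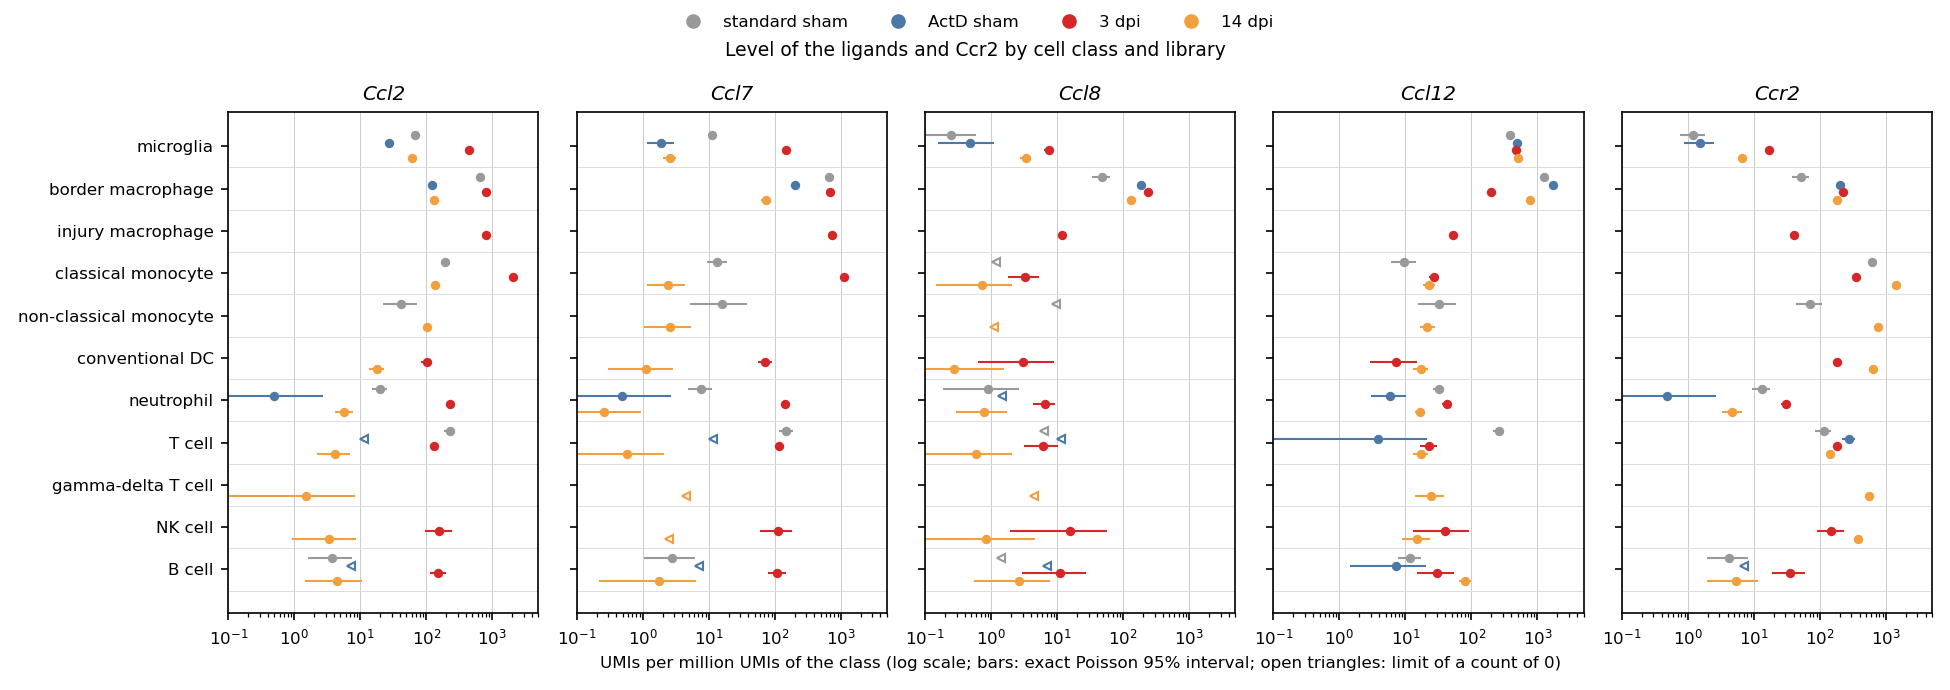
Level of each gene in CPM of the class (horizontal log axis) by cell class and library, with exact Poisson 95% intervals; open triangles give the limit of a count of 0, and a missing point means that the class was not named in that library. The 3 dpi points of Ccl2 and Ccl7 lie to the right of the 14 dpi points in each class named in both, Ccl8 is high only in the border macrophage row of this plot, Ccl12 lies far right in microglia and border macrophages, and Ccr2 in monocytes.

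Ccl12 showed another pattern: microglia and border macrophages held it at the highest levels in all 4 libraries, and the microglial level was similar in sham and injured cords. In microglia it stood at 382, 482, 478 and 514 CPM in the 4 libraries in order, and was found in 20.6%, 20.3%, 26.02% and 20.1% of the cells. In border macrophages the levels were 1251, 1701, 199 and 770.3 CPM, with shares of 36.4%, 47.9%, 10.5% and 25.9%. The 3 dpi level was 8.53-fold under that of the ActD sham library. Injury macrophages held 53.1 CPM and classical monocytes 27.02 CPM at 3 dpi, against 29.9 CPM in B cells. B cells themselves stood at 11.7, 7.101, 29.9 and 80.7 CPM in the 4 libraries, and migratory DC at 201 CPM at 14 dpi. These 14 dpi values came from few cells: 1 of 50 migratory DC held 73 of the 82 UMIs, and 2 of 301 B cells held 50% of the 90 UMIs.

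Border macrophages at 3 dpi also differed in their markers. Injury macrophage markers (8 of 8 found) summed to 13594 CPM there and to 712 CPM in the ActD sham library, and microglial markers (11 of 11 found) to 791 and 4299.5 CPM, while border macrophage markers summed to 9045 and 8528 CPM. Microglia at 3 dpi likewise held 6006 CPM of injury macrophage markers against 75.1 CPM, and 5489 CPM of their own against 23479 CPM. Classical monocytes held 15022 CPM of injury macrophage markers at 3 dpi against 4492 CPM at 14 dpi, and 6645 against 7396 CPM of their own. The border macrophage and classical monocyte clusters of 3 dpi scored highest for the injury macrophage list and took their names from their leading genes. The part of other cells in the levels of Ccl2, Ccl7, Ccl12 and Ccr2 in these classes was not tested.

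Most Ccl8 RNA lay in border macrophages in all 4 libraries. It stood there at 47.1, 189, 235 and 131 CPM in the 4 libraries in order, and at 0.2502, 0.4799, 7.49 and 3.32 CPM in microglia. Border macrophages were 2.57%, 6.53%, 5.45% and 2.26% of the cells and held 76.3%, 96.6%, 53.6% and 59.2% of 59, 323, 2437 and 444 Ccl8 UMIs. At 3 dpi their level was 19.5-fold that of injury macrophages, at 12.04 CPM. B cells stood at 10.9 CPM, which rested on 4 UMIs, too few to tell injury macrophages apart from them. In injury macrophages, 9 of 3204 cells held 50% of the 618 Ccl8 UMIs. Few cells carried it: 4 of 458 border macrophages held 50% of the class's Ccl8 at 3 dpi, the highest with 222 UMIs, and it was found in 3.49% (95% interval 2.01 to 5.61%) of the cells. The share of 53.6% at 3 dpi depended on the processing and was 27.5% with doublets kept and 83.1% with the B cell level (4 UMIs) subtracted. An unnamed cluster of 138 cells led by Prtn3 and histone genes reached 76.8 CPM.

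Among the named classes, classical monocytes held Ccr2 at the highest level in each library in which they were found. They stood at 611 CPM (95% interval 581 to 643) in the standard sham library, 359 CPM (95% interval 342 to 377) at 3 dpi and 1401 CPM (95% interval 1366 to 1438) at 14 dpi, and Ccr2 was found in 43.5%, 27.99% and 69.9% of them. Microglia, the class that should lack the gene, held 1.201, 1.54, 16.9 and 6.71 CPM in the 4 libraries in order, with Ccr2 in 0.151%, 0.398%, 1.75% and 0.739% of the cells. Median depths before thinning were 10983, 8071 and 8775 UMIs in monocytes and 7562, 21219 and 9461 in microglia of those 3 libraries.

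At 3 dpi the cells with most of the ligand RNA held little of the receptor. Injury macrophages, 3204 cells, held 40.5 CPM (95% interval 38.8 to 42.3), above the 16.9 CPM of microglia, the class that should lack the gene. They did not differ beyond counting error from B cells at 35.4 CPM (95% interval 18.8 to 60.5). That B cell value rested on 13 UMIs of shallower cells. Ccr2 was found in 4.87% of injury macrophages and 2.24% of B cells. Border macrophages stood at 225, T cells at 183 and conventional DC at 181 CPM, the last pair not apart beyond counting error, and NK cells at 149.8 CPM (95% interval 90.2 to 234). An unnamed cluster of 423 cells led by MHC class II genes (H2-Eb1, H2-Aa, H2-Ab1) held 403 CPM of Ccr2 and 254 CPM of Ccl2, more Ccr2 and less Ccl2 than injury macrophages, and more Ccr2 than the classical monocytes of this library.

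At 14 dpi Ccr2 was found in further classes, of which non-classical monocytes, gamma-delta T cells and myeloid progenitors were not named at 3 dpi. After classical monocytes came non-classical monocytes at 770.5, conventional DC at 639, gamma-delta T cells at 551, NK cells at 384, myeloid progenitors at 302 and plasmacytoid DC at 242 CPM. Each of the 5 steps from classical monocytes down to myeloid progenitors exceeded counting error. Ccr2 was found in 46.8% of non-classical monocytes, 43.5% of conventional DC, 47.01% of gamma-delta T cells and 25.6% of NK cells. The non-classical class was made of 309 cells led by Ace, Ly6i and Adgre4, at 857 CPM, and 21 cells led by Ear2, Ace and Treml4, at 80.1 CPM. The larger of these clusters scored highest for the classical monocyte list, and the class held 16523 CPM of classical monocyte markers, more than the 7396 CPM of classical monocytes themselves; in the standard sham library it held 2373 CPM. Non-classical monocytes held 70.5 CPM in the standard sham library (47 cells), and myeloid progenitors 2.79 CPM there. The myeloid progenitors of these libraries were unlike clusters, led by Fcnb and Elane in the standard sham library and by Ctsg and Mpo at 14 dpi. Neutrophil markers summed to 130214 CPM in the former and 2696 CPM in the latter. A standard sham cluster of 155 cells led by Ass1 and F13a1 stayed unnamed. Border macrophages stood at 51.3, 203, 225 and 181 CPM in the 4 libraries in order, and T cells at 114, 274, 183 and 140.1 CPM. Migratory DC, at 2.45 CPM (95% interval 0.0621 to 13.7), and B cells, at 5.38 CPM, were at the level of microglia or lower. In the ActD sham library, 80.1% of the Ccr2 UMIs lay in unnamed clusters, among them 63 cells led by Prtn3, Elane and Mpo, genes of granulocyte and monocyte precursors, at 616 CPM.

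**Figure D2:**
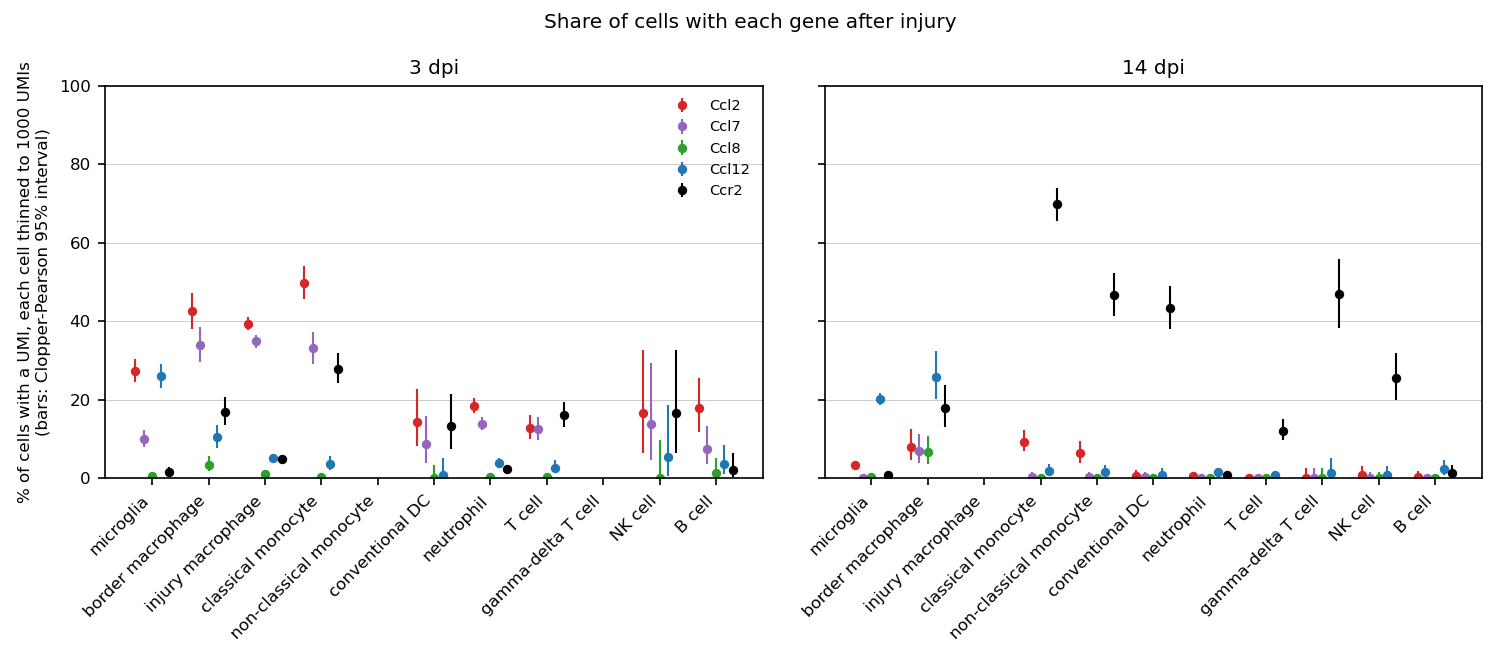
Percent of cells with at least 1 UMI of each gene at 3 dpi and 14 dpi by cell class (vertical axis in percent, each cell thinned to 1000 UMIs), with Clopper-Pearson 95% intervals; gaps are classes not named in that library. At 3 dpi Ccl2 leads in monocytes and macrophages over a band of 12.9 to 18.5% in lymphocytes, DC and neutrophils; at 14 dpi Ccr2 leads in monocytes, DC and gamma-delta T cells.

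Counted by where the UMIs lay, injury macrophages held most of the Ccl2 and Ccl7 at 3 dpi. Of 69366 Ccl2 UMIs they held 59.1%, close to their 51.2% of all UMIs of the library. Classical monocytes held 13.7% with 4.58% of all UMIs, microglia 12.99% with 20.6% and border macrophages 6.33%. Of 53717 Ccl7 UMIs, injury macrophages held 71.2%, classical monocytes 9.697%, border macrophages 7.11% and microglia 5.71%. Ccl12 still came from microglia, with 68.03% of 14546 UMIs, and injury macrophages added 18.7%. The Ccr2 RNA of this library was split between unnamed clusters (26.1%), injury macrophages (25.3%), classical monocytes (20.02%) and border macrophages (15.2%). Per UMI, injury macrophages were near the level of B cells, which were shallower, and above that of microglia.

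At 14 dpi most Ccl12 UMIs lay in microglia, and classical monocytes held the largest share of the Ccr2 UMIs. The library held 4261 Ccl2, 308 Ccl7 and 23781 Ccl12 UMIs. Microglia held 44.5% of the Ccl2 and 68.3% of the Ccl12, unnamed clusters 22.3% of the Ccl2, classical monocytes 13.4% of the Ccl2, and border macrophages 47.4% of the Ccl7. Classical monocytes, 4.97% of the cells, held 38.5% of 15186 Ccr2 UMIs, or 24.6% when the listed genes were kept for clustering. Myeloid progenitors held 17.5%, conventional DC 15.2% and non-classical monocytes 13.7%. In the uninjured cord, border macrophages held 57.3% and 89.2% of the Ccl7 and microglia 75.6% and 45.7% of the Ccl12 in the standard sham and ActD sham libraries. The unnamed microglia-like clusters are not part of these microglial shares.

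**Figure D3:**
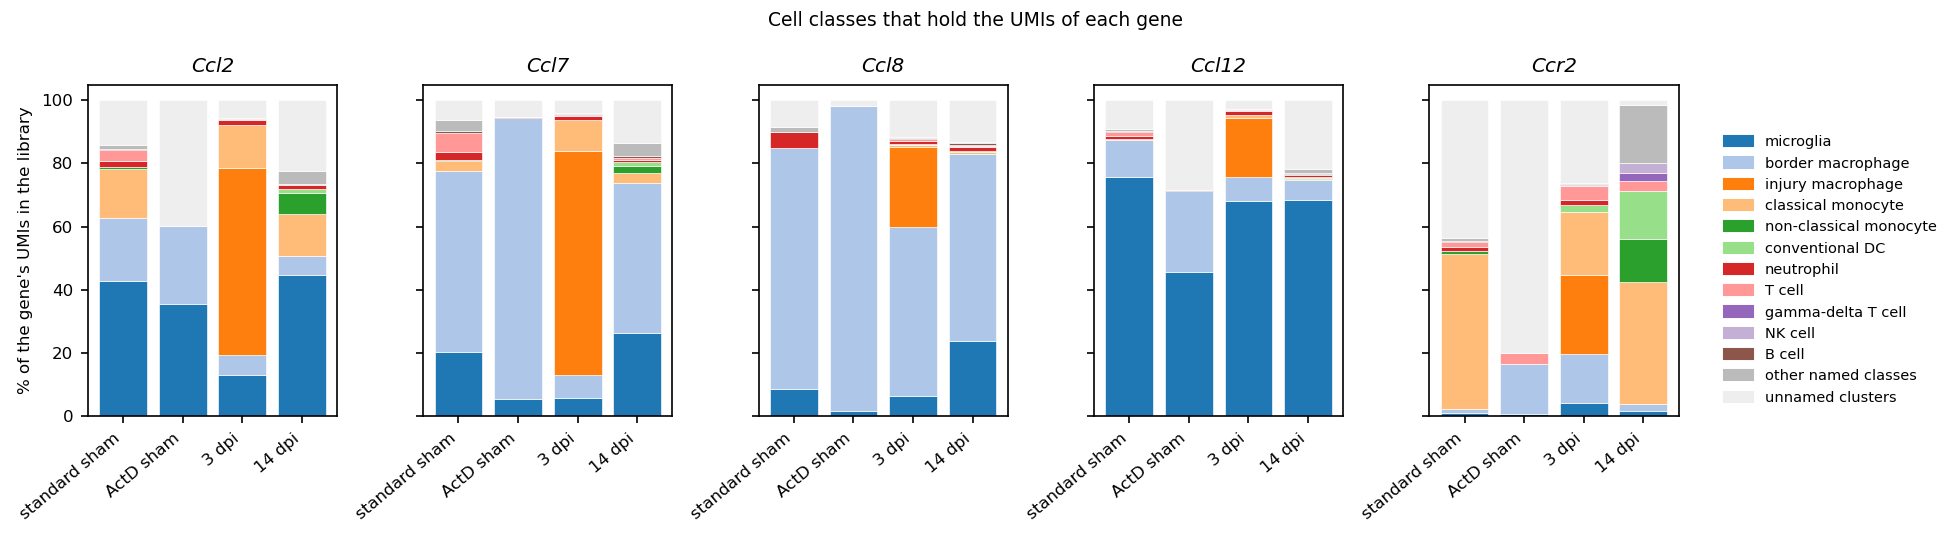
Percent of the UMIs of each gene in a library (vertical axis) that lay in each cell class, 1 bar for each library. The 3 dpi bars of Ccl2 and Ccl7 are mostly injury macrophages (59.1% and 71.2%) and the Ccl8 bars mostly border macrophages. The Ccl12 bars are mostly microglia except in the ActD sham library, where named microglia lead without holding most. The 14 dpi bar of Ccr2 is led by classical monocytes at 38.5%.

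Between libraries and within a class, ratios are given on the log2 scale of CPM, beside the median over all genes that reached 20 UMIs over both libraries and the percent of those genes past a log2 ratio of 1 in the same direction. In microglia, 3 dpi over ActD sham, 4 of the 5 genes were past 1 upward, where 14.3% of genes were; the median gene lay at -0.52. Ccl2 was at 3.98 (95% interval 3.81 to 4.15), which is 4.49 above the median gene (5.35 in male and 3.40 in female cells), and Ccl7 at 6.27 (95% interval 5.64 to 6.98). Ccl8 at 3.96 and Ccr2 at 3.46 started from 0.4799 and 1.54 CPM and reached 7.49 and 16.9 CPM, under the levels of B cells in the same library. Those B cell levels rested on 4 UMIs of Ccl8 and 13 of Ccr2, and for Ccl8 the difference was within counting error. Ccl12 was at -0.01 (95% interval -0.06 to 0.04), or 0.50 relative to the median gene. In border macrophages, Ccl2 at 2.70 (95% interval 2.49 to 2.91) and Ccl7 at 1.74 (95% interval 1.58 to 1.90) were past 1 upward (10.6% of genes were), Ccl12 at -3.09 (95% interval -3.19 to -2.99) downward (20.9% of genes were; -1.996 in male and -4.31 in female cells), and Ccl8 and Ccr2 lay at 0.31 and 0.15 (95% interval -0.03 to 0.32), with the median gene at -0.26. In B cells of the ActD sham library 0 Ccl2 and 0 Ccl7 UMIs were found, which allows up to 7.101 CPM, against 152 and 109 CPM at 3 dpi.

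From 3 dpi to 14 dpi, Ccl2 and Ccl7 were lower in each class in which both libraries could be compared. In T cells, NK cells and plasmacytoid DC the fall was like that of B cells, the background class. B cells went from 152 to 4.48 CPM of Ccl2 and from 109 to 1.79 CPM of Ccl7. Ccl2 fell less in conventional DC, from 101 to 17.8 CPM, and in migratory DC, from 97.2 to 39.3 CPM. The part of free RNA in these classes was not tested. In classical monocytes Ccl2 lay at -3.92 (95% interval -4.04 to -3.80) and Ccl7 at -8.89 (95% interval -9.95 to -8.01), past -1 with 7.15% of genes, and Ccr2 at 1.97 (95% interval 1.89 to 2.04), past 1 with 19.7% of genes. The median gene lay at 0.37, which leaves 1.60 for Ccr2 relative to it. Under other settings the ratio of 1.97 itself ranged from 1.43 to 2.44. The injury macrophage markers of these monocytes were lower at 14 dpi as well, as given above. In microglia 4 of the 5 genes, all but Ccl12 at 0.10, were past -1, where 15.1% of genes were: Ccl2 at -2.86, Ccl7 at -5.85, Ccl8 at -1.17 and Ccr2 at -1.33. Of these 4, all but Ccl2 stood near or under the B cell level at 3 dpi in CPM, though microglia were deeper than B cells. The Ccr2 of B cells went from 35.4 to 5.38 CPM as well. In border macrophages Ccl2 (-2.59) and Ccl7 (-3.24 (95% interval -3.49 to -3.003)) were past -1 with 7.86% of genes and Ccl12 past 1, at 1.95 (95% interval 1.84 to 2.06), with 19.1% of genes, while Ccl8 lay at -0.84 and Ccr2 at -0.32. Ccr2 was also past 1 in conventional DC, at 1.82 (95% interval 1.60 to 2.05) (12.7% of genes), NK cells, at 1.36 (95% interval 0.70 to 2.10) (12.5%), and plasmacytoid DC, at 1.21 (12.5%), and not in T cells, at -0.38 (6.11%). The conventional DC of both time points were led by other genes, Xcr1 and Itgae at 3 dpi and Cd209a at 14 dpi, so that the ratio compares unlike clusters.

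From the ActD sham library to 14 dpi, 3 of the 5 genes were past 1 in microglia, where 5.62% of genes were: Ccl2 at 1.12 (95% interval 0.94 to 1.30), and Ccl8 and Ccr2, both under 10 CPM. In border macrophages Ccl7 at -1.50 (95% interval -1.79 to -1.22) and Ccl12 at -1.14 (95% interval -1.23 to -1.05) were past -1, where 4.45% of genes were. Between the sham libraries, ActD over standard, Ccl2 lay at -2.41 (95% interval -2.65 to -2.18) and Ccl7 at -1.69 (95% interval -1.88 to -1.49) in border macrophages, past -1 with 5.47% of genes, and Ccl8 at 2.002 (95% interval 1.55 to 2.49) and Ccr2 at 1.99 (95% interval 1.55 to 2.45), past 1 with 17.5% of genes (median gene 0.38). In microglia Ccl2 at -1.26 (95% interval -1.45 to -1.08) and Ccl7 at -2.55 (95% interval -3.29 to -1.89) were past -1 with 6.81% of genes, and Ccl12 lay at 0.33 with the median gene at 0.54. The protocol and the software version of the matrices (3.0.1 and 3.1.0) differ together between the sham libraries and cannot be told apart, and the same versions differ between 3 dpi and its ActD sham control and between 3 dpi and 14 dpi.

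Within microglia, the level of Ccl12 was highest in small clusters led by interferon-induced genes (Ifit3, Ifit2, Cxcl10). These reached 4257 CPM in the standard sham library (36 cells), 2278 CPM in the ActD sham library (40 cells) and 3852 CPM at 14 dpi (100 cells). The other named microglial clusters spanned 258 to 396, 39.6 to 723 and 148 to 633 CPM in the same libraries. The 14 dpi interferon cluster held 429 CPM of Ccl2 as well, against 4.99 to 72.9 CPM in the other named microglial clusters. At 3 dpi no such cluster of microglia was found, and the cycling cluster (Mki67, Top2a) stood at 494 and the other at 468 CPM. An unnamed cluster of 780 cells at 14 dpi, led by Gpnmb and Ms4a7 of the injury macrophage list, held 76.9 CPM of Ccl12 and 15.2 CPM of Ccl2. Its scores for the microglial and injury macrophage lists were close, at 0.337 and 0.278, so it is not counted as microglia.

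Among injury macrophages, Ccl2 was highest in the cluster led by Cxcl1 and Cxcl3, neutrophil-attracting chemokines, at 1245 CPM (782 cells), and lowest in that led by Gpnmb at 439 CPM (974 cells). Ccl7 followed the same order at these ends, with 1067 and 363 CPM. The cluster led by interferon-induced Rsad2 and Ifit3 (87 cells) held 299 CPM of Ccl12, against 21.4 to 72.7 CPM in the other 4 injury macrophage clusters. Ccr2 was 14.9 to 104 CPM over these clusters. The clusters were made without the 5 genes, but of the same cells, so these values are descriptions.

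**Figure D4:**
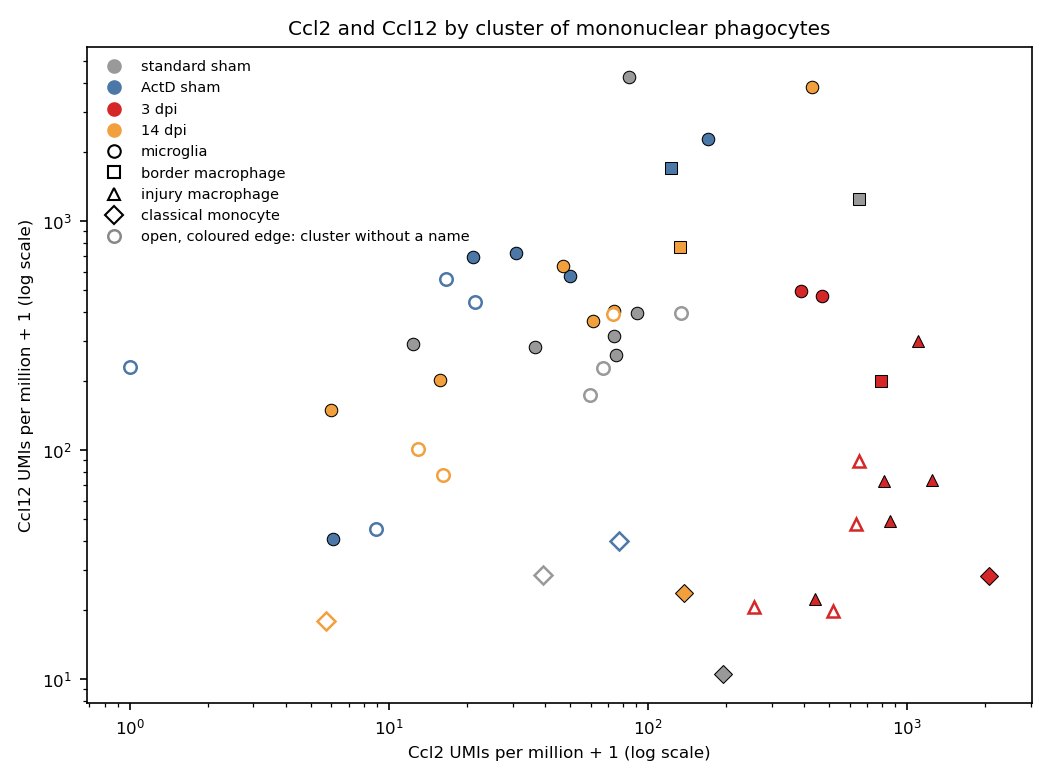
Ccl12 (vertical, CPM + 1, log scale) against Ccl2 (horizontal, same unit, log scale), 1 point for each cluster of mononuclear phagocytes; colour gives the library, shape the class, and open points with a coloured edge are clusters without a name, drawn in the shape of the class they scored highest for. The 3 dpi points lie to the right, and the 3 interferon-led microglial clusters lie at the top, above 2000 on the vertical axis.

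The spread over single cells differed between the genes. The cells with the most UMIs that together held 50% of those of a class were 40 of 1005, 75 of 859 and 94 of 2847 microglia for Ccl12 in the last 3 libraries, 59 of 543 classical monocytes and 372 of 3204 injury macrophages for Ccl2 at 3 dpi, and 140 of 469 classical monocytes for Ccr2 at 14 dpi. Ccl7 was found more often in cells with Ccl2 than in cells without it. At 3 dpi, Ccl7 was found in 51.7% (140 of 271, 45.5 to 57.7%) of classical monocytes with Ccl2 and in 14.7% (40 of 272, 10.7 to 19.5%) of those without. The shares were 54.1% and 22.5% in injury macrophages and 50.3% and 22.1% in border macrophages. All cells were thinned to 1000 UMIs before these counts, and free RNA adds both genes to any cell.

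Ligand and receptor were not kept to separate cells. At 3 dpi Ccr2 was found in 25.5% (69 of 271, 20.4 to 31.1%) of classical monocytes with Ccl2 and 30.5% (83 of 272, 25.1 to 36.4%) of those without, intervals that overlap. At 14 dpi these shares were 70.5% (31 of 44, 54.8 to 83.2%) and 69.9% (297 of 425, 65.3 to 74.2%). In non-classical monocytes at 14 dpi they were 80.95% (17 of 21, 58.1 to 94.6%) and 44.5% (137 of 308, 38.8 to 50.2%). Among microglia at 14 dpi, Ccl12 was found in 56% (56 of 100, 45.7 to 65.9%) of cells with Ccl2 and 18.8% (516 of 2740, 17.4 to 20.3%) of those without.

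Each library pooled mice of both sexes, and the cells could be told apart by Y-linked genes and Xist, so that male and female cells of a library are cells of different mice handled together. In microglia Ccl12 stood at 415, 132, 417 and 409 CPM in male cells and 349.9, 800.1, 627 and 573 CPM in female cells in the 4 libraries in order. The ActD sham library stood apart, with a 6.07-fold higher level in 389 female than in 416 male microglia. This ratio leaves out the microglia-like clusters of this library that stayed unnamed, so it holds for the named cells only. In border macrophages of that library the levels were 2419 (female) and 757 CPM (male), and Ccl2 in microglia lay at 43.8 and 10.5 CPM. The sexes also fell into different clusters there: 360 male and 16 female cells in the microglial cluster led by P2ry12 and Col27a1, at 39.6 CPM of Ccl12, and 7 male and 285 female cells in that led by Spint1 and Lgals3bp, at 723 CPM. Median depths were 8974 and 11058 UMIs, and the immediate early genes summed to 1192 and 968 CPM, in male and female microglia of this library. Sex and mouse cannot be told apart in a pool.

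The similar levels of Ccl12 in microglia of the ActD sham library and at 3 dpi were sums of unlike parts, 132 against 417 CPM in male and 800.1 against 627 CPM in female cells. The lower level in border macrophages at 3 dpi was present in both sexes, with 757 against 189.9 CPM in male and 2419 against 122 CPM in female cells. Of the 1306 Ccl8 UMIs of border macrophages at 3 dpi, 467 lay in male cells (169 CPM), 6 in female cells (7.404 CPM) and the others in cells that could not be given a sex, so that the sexes cannot be compared for this gene. For Ccl2 at 3 dpi the sexes were close, at 2012 and 1957 CPM in male and female classical monocytes and 818 and 749 CPM in injury macrophages, and for Ccr2 in classical monocytes at 14 dpi they were 1428 and 1113 CPM. Cells that could not be given a sex are left out of these values.

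**Figure D5:**
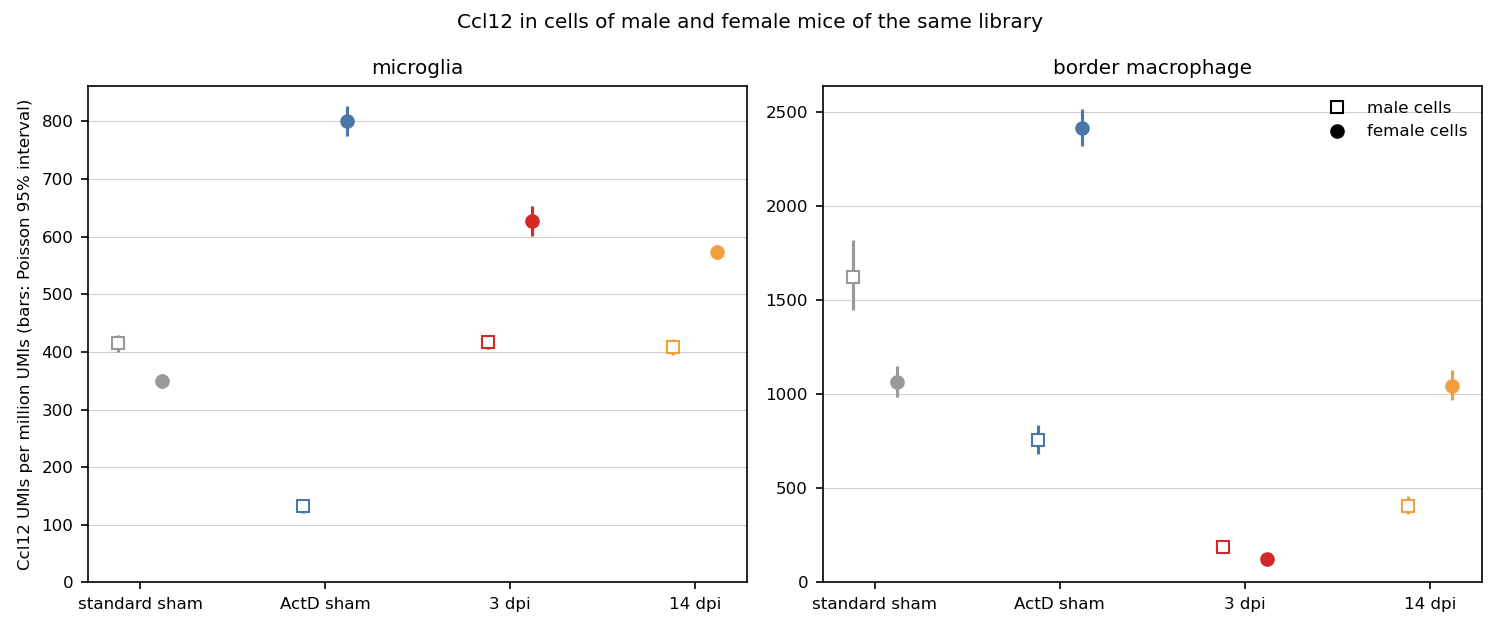
Ccl12 in CPM (vertical axis from 0) in male (open squares) and female (filled circles) cells of microglia and of border macrophages in each library, with Poisson 95% intervals. The gap between the sexes in the ActD sham library, 132 against 800.1 CPM in microglia, is wider than in the other libraries.

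The genes around this axis were read from fixed lists, over members that reached the same 20 UMIs. Of the other CC chemokines, 6 of 8 were past 1 upward (10.6% of genes) and 1 past -1 (20.9%) in border macrophages, 3 dpi over ActD sham, with a median log2 ratio of 2.10 against -0.26 for all genes. Ccl6 went from 623 to 3019 CPM and Ccl9, a ligand of CCR1, from 259 to 1302 CPM. In microglia 3 of 8 were past 1 (14.3% of genes) and 1 past -1 (32.3% of genes). In classical monocytes, 14 dpi over 3 dpi, 5 of 7 were past -1 (7.15% of genes) and 1 past 1 (19.7%), among the former Ccl9, from 1261 to 436 CPM. Of the inducers and NF-kB feedback genes 4 of 7 were past 1 in border macrophages at 3 dpi, such as Il1b, from 8.47 to 451 CPM, and 3 of 7 past -1 in classical monocytes from 3 to 14 dpi, where Il1b went from 1676 to 300.0 CPM.

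Of the listed chemokine receptors besides Ccr2, Ccr1 (364 to 151 CPM) and the atypical receptor Ccrl2 (194 to 57.02 CPM) lay past -1 in classical monocytes from 3 to 14 dpi, against the direction of Ccr2. Of the adhesion and entry genes 4 of 10 lay past 1 (19.7% of genes) and 2 past -1 (7.15%). Cx3cr1, the fractalkine receptor, went from 125 to 352 CPM and Cd44, the hyaluronan receptor, from 592 to 288 CPM. The signalling partners of CCR2, such as Gnai2 of its G protein, were past 1 in 1 of 8 and past -1 in 0 of 8 cases in these monocytes, near the shares of all genes (19.7% and 7.15%). The counts were 0 and 1 of 8 both in border macrophages (10.6% and 20.9% of genes) and in microglia (14.3% and 32.3%), 3 dpi over ActD sham.

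Immediate early genes, which dissociation can induce, moved in the direction of Ccl2 and Ccl7 in some comparisons and not in others. In microglia all 20 lay past -1 (6.81% of genes), ActD over standard sham, with a median log2 ratio of -6.09. From the ActD sham library to 3 dpi, with ActD in both, 18 of 20 lay past 1 in microglia (14.3% of genes, sum 1038 to 5948 CPM). In border macrophages 20 of 20 did (10.6% of genes, sum 1486 to 8689 CPM). At 14 dpi the sums were 689 and 1349 CPM, and in classical monocytes 10 of 20 lay past -1 from 3 to 14 dpi (7.15% of genes, sum 10775 to 5491 CPM). In microglia from the ActD sham library to 14 dpi the directions were opposite, as the sum fell while Ccl2 went from 27.6 to 60.0 CPM. Nor did the sizes go together. Microglia of the standard sham library held 48188 CPM of these genes with 66.3 CPM of Ccl2, and those at 3 dpi 5948 CPM with 435 CPM of Ccl2. The part of dissociation in the levels of Ccl2 and Ccl7 at 3 dpi was not tested.

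Over 34 sums of a class in a library with at least 50 cells, the genes whose pattern was most like each of the 5 were named by the Pearson correlation of log2(CPM + 5) among 11943 genes. For Ccl2 they were Ccl9 (r = 0.91), Tubb6 (0.91) and Msr1 (0.89), for Ccl7 Pf4 (0.95), Ccl24 (0.88) and Hmox1 (0.87), and for Ccl8 Col14a1 (0.95), Gja1 (0.95) and Folr2 (0.94). For Ccl12 they were C1qc, C1qa and Fcrls (0.94 each), and for Ccr2 Ahnak (0.90), Capn2 (0.85) and Itgb7 (0.81). Among the 5 genes themselves, Ccl2 and Ccl7 were most alike (0.88) and Ccl12 and Ccr2 least (-0.14). The points share libraries, depth and free RNA, so these correlations are a description.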

How the data were processed

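The authors sequenced CD45+ cells with a droplet method that reads the 3′ end of each RNA and made UMI counts per gene and cell with Cell Ranger (build mm10, per the submitters' processing notes); the deposited matrices hold these counts without normalization, 31053 genes in each. Their headers give software versions 3.0.1 (standard sham, 3 dpi) and 3.1.0 (ActD sham, 14 dpi).

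Kept cells had 600 genes or more and no more than 10% of UMIs from mitochondrial genes. Cells with Itgam and a lymphoid marker and those with the highest doublet scores were removed, which left 5138 to 9439 cells, except 2144 in the ActD sham library. Each library was clustered alone in scanpy 1.11.5 (Leiden resolution 1.2, 2000 variable genes without the 5 genes and the lists, 50 components, 20 neighbours). A cluster of at least 20 cells was named if it led for 1 marker list with at least 3 markers in 25% of its cells and its 10 leading genes did not favour another class. A class with at least 3 markers among those 10 genes took the name if its list scored at least 50% of the highest, which named 3 clusters. These thresholds, and a list of neutrophil precursor genes, were set after the clusters were seen. UMIs were summed by class and scaled to CPM. Intervals are at 95%; a count of 0 allows 3 counts. With 1 library for each condition there was no test. The interval of ratios was tested on simulated Poisson counts, which leave out the clumping of UMIs in few cells.

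The 5 genes, the lists and the comparisons were chosen with earlier results of these data known. Named besides the 5 were the 3 genes of each list with the most UMIs in the class, or past a log2 ratio of 1 with at least 200 UMIs, and the 3 most alike genes of each; 2 listed genes that this rule names are not reported here. Male cells had a UMI of Ddx3y, Eif2s3y, Kdm5d or Uty and none of Xist, female cells the reverse. Alternatives were Seurat 5.3.0 anchors, 2 other resolutions, looser and stricter cell filters, doublets or Itgam cells kept, listed genes kept, free RNA subtracted, TMM factors of edgeR 4.0.16, other thinning depths, each sex alone and, chosen after seeing the data, lenient naming. Sequencing reads, flow cytometry and the staining of tissue were not analysed here.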

Additional observations from a re-analysis of the deposited data

Results flagged for a closer look

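Ccl12 moved in opposite directions in the male and female cells of 1 class, and the difference was not tested in any of these pairs. From the standard sham to the ActD sham library its log2 ratio was -1.65 in male and 1.19 in female microglia, and -1.1 in male and 1.18 in female border macrophages. From the ActD sham library to 3 dpi it was 1.66 in male and -0.35 in female microglia, and to 14 dpi it was 1.63 in male and -0.48 in female microglia. All of these ratios share the ActD sham library.

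In border macrophages, Ccl8 lay at 0.84 in male and -4.96 in female cells from the ActD sham library to 3 dpi, and at 0.58 and -1.74 from the ActD sham library to 14 dpi, and the difference was not tested. At 3 dpi most of the 1306 Ccl8 UMIs of the class lay in cells given no sex (467 in male and 6 in female cells). Ccl2 lay at 2.19 in male and -1.23 in female border macrophages from the ActD sham library to 14 dpi, which was not tested either.

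Between classes, the log2 ratio of Ccl12 from the ActD sham library to 14 dpi was 3.51 in B cells and -1.14 in border macrophages, a difference that was not tested. The B cell level rested on 3 UMIs in the ActD sham library, and 2 of 301 cells held 50% of the 90 UMIs at 14 dpi.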

How the results depend on the processing

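Limits: each condition is 1 library, depth and free RNA differ between libraries, and class names rest on markers. No paired analysis was possible because each condition has 1 library and the labels give no replicate numbers. Over 38 results and 441 alternative values, 311 stayed within the interval of the reported value, 125 moved outside it and 5 turned direction. The ratios of Ccl2, Ccl7, Ccl12 and Ccr2 and the shares that are listed first below were not counted here. The cause of these shifts was not tested. No value was obtained at resolution 0.6 for border macrophages, a class not named there at 3 dpi. Injury macrophages, not named at 14 dpi under the main settings, were named there under some others. These were doublets kept (314 cells), Itgam cells kept (391), anchors (206) and the highest resolution (153). Resolution 0.6, listed genes kept and the looser and stricter filters named none there. The stricter filter named 62 classical monocytes in the ActD sham library.

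The log2 ratio of Ccl2 in microglia, 3 dpi over ActD sham (3.98), was 4.50 at resolution 0.6, 4.37 with the looser cell filter, 4.55 with doublets kept, 4.33 with lenient naming, 3.36 with free RNA subtracted, 4.49 with TMM factors, 5.35 in male and 3.40 in female cells. That of Ccl7 in border macrophages, 14 over 3 dpi (-3.24), was -3.70 with anchors, -3.57 at resolution 2.0, -4.21 with the looser filter, -2.92 in male and -2.55 in female cells. That of Ccl12 in border macrophages, 3 dpi over ActD sham (-3.09), was -2.82 with anchors, -2.28 at resolution 2.0 and with the looser filter, -3.81 with the stricter filter, -2.07 with doublets kept, -2.97 with Itgam cells kept, -3.32 with free RNA subtracted, -2.83 with TMM factors, -1.996 in male and -4.31 in female cells. That of Ccr2 in classical monocytes, 14 over 3 dpi (1.97), was 2.44 with anchors, 1.76 at resolution 0.6, 1.43 at 2.0, 2.15 with listed genes kept, 1.87 and 1.78 with the looser and stricter filters, 1.61 with TMM factors, 1.80 in male and 1.82 in female cells.

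The share of Ccl2 UMIs in injury macrophages at 3 dpi (59.1%) was 58.0% with anchors, 63.4% at resolution 0.6, 55.0% with listed genes kept, 56.6% and 68.6% with the looser and stricter filters, 50.8% with doublets kept, 59.9% with Itgam cells kept, 63.9% with lenient naming and 61.1% with free RNA subtracted. The share of Ccl8 UMIs in border macrophages at 3 dpi (53.6%) was 33.1% at resolution 2.0, 58.6% with listed genes kept, 35.1% and 60.6% with the looser and stricter filters, 27.5% with doublets kept, 35.6% with Itgam cells kept and 83.1% with free RNA subtracted. The share of Ccr2 UMIs in classical monocytes at 14 dpi (38.5%) was 33.5% with anchors, 51.7% at resolutions 0.6 and 2.0, 24.6% with listed genes kept, 51.6% and 51.4% with the looser and stricter filters, 37.0% with doublets kept, 36.9% with Itgam cells kept and 40.1% with free RNA subtracted. The share of classical monocytes with Ccr2 at 14 dpi (69.9%) was 50.1% after thinning to 500 UMIs, 89.4% after thinning to 2000 and 97.4% without thinning.

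Direction turned in T cells at resolution 0.6, ActD over standard sham (Ccl12 from -6.09 to 0.87, Ccr2 from 1.27 to -1.03), and for Ccl12 from 3 to 14 dpi in B cells (from 1.43 to -0.31 with anchors and -0.34 in male cells) and migratory DC (from 3.89 to -0.37 with anchors).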
